A study of Mus musculus with 12 samples.

Results

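The 31 genes described here mark T cells and natural killer (NK) cells, the lymphocytes that recognise and kill altered cells. They were taken from a raw count table of 39017 genes by symbol, and where a symbol had several gene identifiers the one with most counts was used. All 31 were found, and 30 passed the filter on low counts. Gzmk, a granzyme gene with 7 counts over all tumours, did not pass and was not tested.

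RNA was sequenced from 12 bulk mammary tumours, 3 in each of 4 groups, from female mice of the FVB/N strain, whose mammary fat pad had received 250000 NIC cells at 8 to 12 weeks of age. NIC cells are a mouse breast cancer line positive for ErbB2, and per the series' design text they lack p66ShcA, an isoform encoded by the adaptor gene Shc1. The p66High cells were engineered to overexpress p66ShcA constitutively and the p66Low cells were not. Each line was injected either as parental cells or as an aggressive population, which had passed through serial rounds of growth in the fat pad before it was returned to culture. This gave 2 parental groups, p66Low and p66High, and 2 aggressive groups named in the same way. All of them carry the same ErbB2-positive background and grew in the same strain of mouse. The labels do not say how many clones each population holds or whether each tumour of a group grew in its own mouse. Replicates 1 and 2 of the p66High parental group share a number in their titles, as do replicates 1 and 2 of the p66High aggressive group. The tumours of a group may therefore not be independent of each other. The p-values set group differences against the spread of these samples only.

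T cells read antigen through a receptor that has no signalling tail of its own and depends on the CD3 chains and on the CD3 zeta chain. The coreceptors CD4 and CD8 bind the presenting MHC molecule and bring the kinase LCK to the receptor, and ZAP-70 and the adaptor LAT carry the signal on. NK cells lack this receptor and read stress and MHC ligands through germline-encoded receptors, but they share with killer T cells the granzymes, perforin and Fas ligand. The mouse mammary fat pad contains a lymph node, where naive T cells and B cells are abundant and cells that have turned on killing genes are fewer.

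Cr2, the complement receptor gene of B cells and follicular dendritic cells, and the chemokine genes Ccl21a and Cxcl13 of lymphoid stroma were used as the lymph node measure. Their summed level (in CPM, the counts scaled to library size, here with the trimmed mean of M-values) reached 57.1 and 82.1 CPM in replicates 1 and 2 of the p66Low aggressive group and 20.6 CPM in the third p66High parental tumour. It was 0 to 0.699 CPM in the other 9 tumours, and no count of the 3 genes was found in p66High parental replicate 2 or p66High aggressive replicate 2. For 10 genes of B cells these libraries were also highest, with 172 and 232 CPM in those 2 p66Low aggressive tumours and 55.8 CPM in the p66High parental one against 6.82 to 17.9 CPM in the other 9. Results are given below with and without these 3 libraries, called the lymph node-rich libraries. Only 1 p66Low aggressive tumour, replicate 3, is among the 9 others.

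Total counts per tumour ran from 17368192 to 76103880. The floor below which a gene was taken as undetected was 3 counts, or 0.0394 to 0.156 CPM. Shc1 followed the labels, at 59.0 to 69.9 CPM in p66Low tumours and 223 to 774 CPM in p66High tumours, and the gene-level count does not separate the p66 isoform. The summed level of 5 epithelial tumour genes lay between 1957 and 3069 CPM in all 12 tumours.

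The T cell and NK cell genes were scarce in most tumours. Summed over the genes, the level was 12.7, 15.9 and 11.3 CPM in the p66Low parental tumours and 32.0, 18.8 and 8.20 CPM in the p66High aggressive tumours. It was 19.7, 19.3 and 85.2 CPM in the p66High parental tumours and 255, 406 and 99.7 CPM in the p66Low aggressive tumours. The 3 p66Low aggressive tumours were thus the 3 highest of the 12. Gene by gene, the highest tumour was p66Low aggressive replicate 2 for 26 of the 30 genes tested (12.1% of all genes), replicate 3 for Gzma, Gzmb and Fasl (11.3%) and replicate 1 for Ncr1 (6.23%). The fourth highest sum was in p66High parental replicate 3, the lymph node-rich library of its group. At the other end, p66High aggressive replicate 3 had no count for 11 of the 31 genes and 3 or fewer counts for 21, while p66Low aggressive replicate 2 and replicate 3 had counts for all 31. In bulk RNA fewer lymphocytes and less RNA per lymphocyte cannot be told apart.

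**Figure D1:**
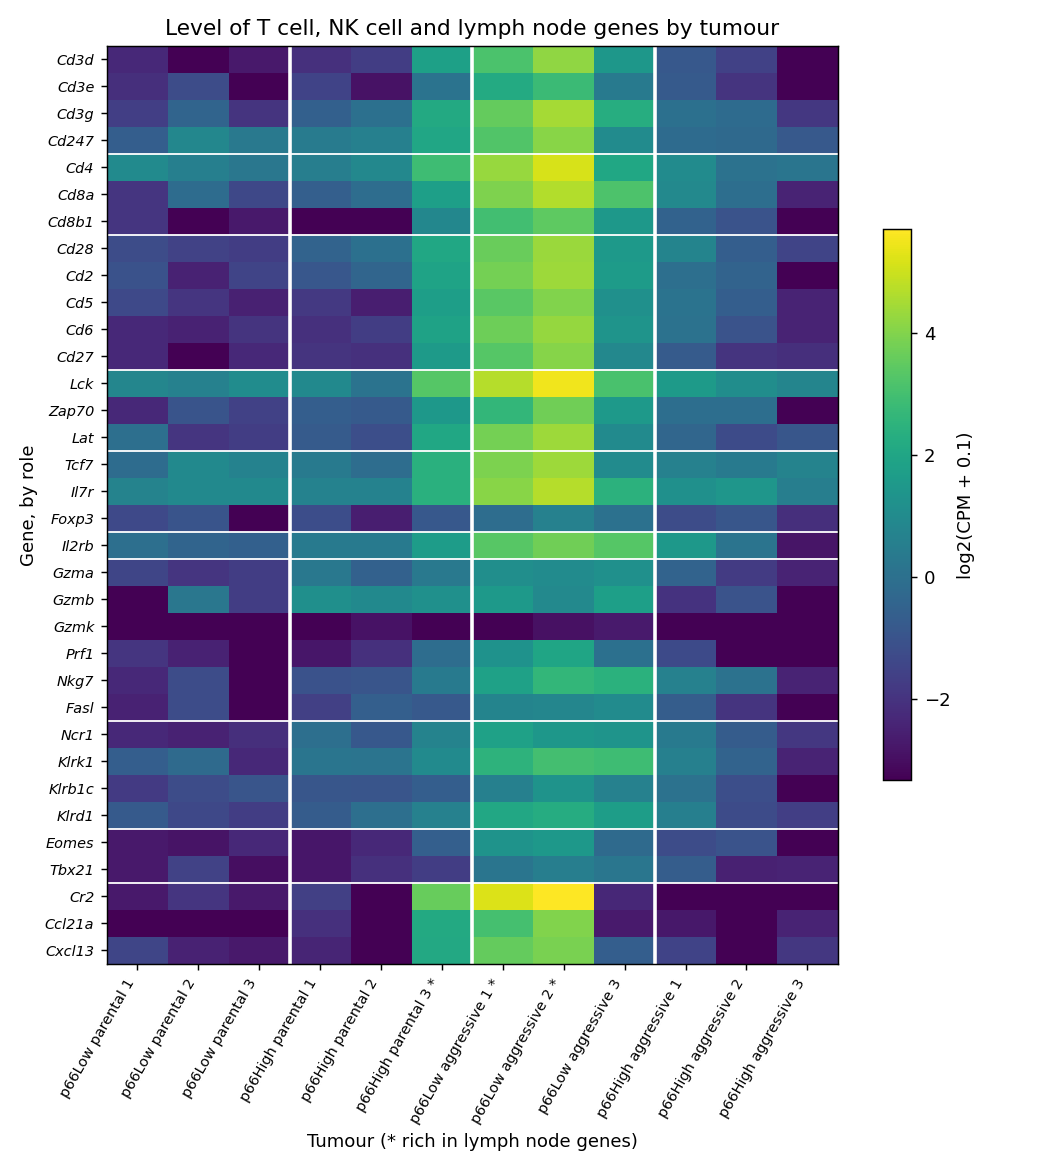
Level of each T cell and NK cell gene (rows, ordered by role) and of the 3 lymph node genes (last 3 rows) in each of the 12 tumours (columns), as log2(CPM + 0.1). Asterisks mark the 3 lymph node-rich libraries. The p66Low aggressive columns are the brightest, and replicate 3 of that group is bright for the T cell and NK cell genes but dark for the lymph node genes.

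**Figure D2:**
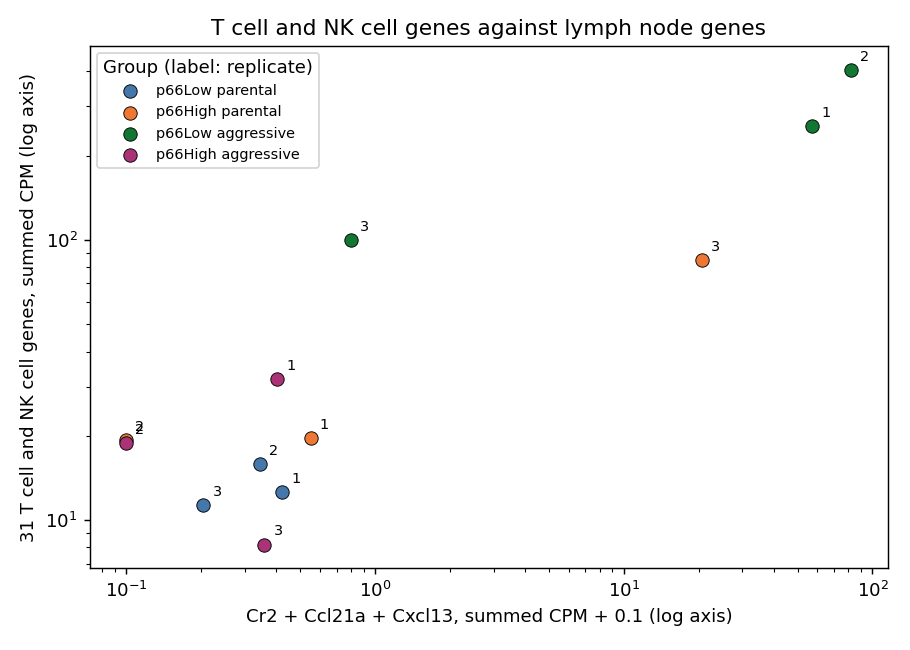
Summed CPM of the 31 T cell and NK cell genes (vertical, log axis) against the summed CPM of Cr2, Ccl21a and Cxcl13 plus 0.1 (horizontal, log axis), 1 point per tumour, coloured by group and labelled with the replicate number. The 3 lymph node-rich libraries lie at the right, and p66Low aggressive replicate 3, at 99.7 CPM against 0.699 CPM, stands above all other tumours on the left.

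Levels of different genes are compared only per kilobase of annotated exon. On that scale Lck had the highest mean of the 31 genes in p66Low parental, p66High parental and p66Low aggressive tumours, at 0.581, 1.46 and 8.98 CPM per kilobase. In p66High aggressive tumours it was the second highest, at 0.748 CPM per kilobase, behind Nkg7 at 0.912. Foxp3, Eomes, Tbx21 and Gzmk filled the last 4 places in p66Low aggressive tumours, with means from 0.0211 to 0.471 CPM per kilobase. The first 3 of these encode transcription factors of T cell and NK cell subsets.

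The first comparison set aggressive against parental tumours of p66Low cells, which asks what accompanied in vivo selection in the absence of added p66ShcA. Of the 30 genes tested, 28 rose and none fell (edgeR quasi-likelihood test, Benjamini-Hochberg adjusted p under 0.05), where 9.6% of the 19370 genes tested were called higher. The median log2 difference of the 30 genes was 4.71, against -0.02 over all genes tested. In each of the 30 genes all 3 aggressive tumours lay above all 3 parental tumours, which held for 16.2% of all genes. The filter on low counts keeps genes that are high in a single group. Some of the 30 could thus have been kept by their p66Low aggressive levels. The same limit holds below wherever p66Low aggressive tumours lie above others in all 30 genes. Gzmb and Foxp3 were the 2 genes that did not pass. The calls of 15 genes held whichever of the 12 tumours was left out: Cd3d, Cd3g, Cd8a, Cd28, Cd2, Cd6, Cd27, Lck, Il7r, Il2rb, Gzma, Nkg7, Ncr1, Klrk1 and Klrd1. Without p66Low parental replicate 3 the count was 16, where 7.73% of all genes passed in either direction.

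Among the chains of the T cell receptor complex, Cd3g, which encodes the gamma chain, was at 0.216, 0.649 and 0.156 CPM in the p66Low parental group and 11.7, 22.3 and 4.81 CPM in the p66Low aggressive group. Cd3d, the delta chain gene, was at 0.108, 0 and 0.0520 CPM in the former and 8.75, 18.3 and 2.61 CPM in the latter. For both genes the lowest aggressive tumour was replicate 3, and it was still above every parental tumour. Cd3g rose by 5.33 on the log2 scale (SE 0.96, edgeR adjusted p = 0.00443) and Cd3d by 7.32 (SE 1.51, edgeR adjusted p = 0.00855). The latter rests on 6 counts in the parental tumours, and leaving out 1 tumour at a time moved it between 6.50 and 8.21, the ends being without p66Low aggressive replicate 2 and without p66Low parental replicate 1. Cd3e, the epsilon chain gene, rose by 4.89 and Cd247, which encodes the zeta chain, by 3.07. Neither of these calls was kept without replicate 1 or replicate 3 of the p66Low parental group or without p66Low aggressive replicate 2 (edgeR adjusted p = 0.0721, 0.0748 and 0.0736 for Cd3e and 0.0620, 0.0630 and 0.0701 for Cd247).

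The coreceptor gene Cd8a, the alpha chain of CD8 on killer T cells, was at 0.162, 0.812 and 0.286 CPM in the p66Low parental group and 15.2, 24.9 and 9.02 CPM in the p66Low aggressive group. Cd4, the coreceptor of helper T cells and also present on some myeloid cells, was at 1.89, 1.38 and 1.09 CPM in the former and 19.6, 35.8 and 4.01 CPM in the latter. The groups did not overlap for either gene, but replicate 3 came closer to replicates 1 and 2 in Cd8a than in Cd4. Cd8a rose by 5.36 on the log2 scale (SE 0.97, edgeR adjusted p = 0.00443), and Cd4 by 3.76 (SE 0.81, edgeR adjusted p = 0.0103). The Cd4 call was lost without p66Low parental replicate 3, at an edgeR adjusted p of 0.0528. Cd8b1, the CD8 beta chain gene, rose by 6.45 from 0.0713 ± 0.0827 CPM to 7.11 ± 4.16 CPM (SD, n = 3). Its call was lost without any 1 of the p66Low parental tumours or p66Low aggressive replicate 2, with edgeR adjusted p-values from 0.0555 to 0.0833.

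Surface receptors of T cells moved by similar amounts. Cd27, a costimulatory receptor of the TNF receptor family, was at 0.108, 0 and 0.104 CPM in the p66Low parental group and 9.80, 16.4 and 1.76 CPM in the p66Low aggressive group. Cd5, a receptor that dampens T cell receptor signals, was at 0.297, 0.162 and 0.0780 CPM in the former and 10.3, 15.9 and 2.20 CPM in the latter. In both genes the 2 aggressive tumours rich in lymph node genes stood far above replicate 3. Cd27 rose by 6.85 (SE 1.41, edgeR adjusted p = 0.00849). Cd5 rose by 5.69 (SE 1.35, edgeR adjusted p = 0.0159), a call lost without p66Low parental replicate 3 or p66Low aggressive replicate 2 (edgeR adjusted p = 0.0713 and 0.0510). Cd6, a relative of Cd5 on the same chromosome, rose by 6.56, the costimulatory receptor gene Cd28 by 5.49 and the adhesion receptor gene Cd2 by 5.62.

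The receptor-proximal signalling genes rose together with the receptor chains. Lck was at 1.46 to 2.0 CPM in the p66Low parental group and 25.5, 44.9 and 8.48 CPM in the p66Low aggressive group. It stood above 1 CPM in every tumour except p66High parental replicate 2, and its parental level rests on more counts (36 to 77) than that of the CD3 chains. The rise was 3.94 on the log2 scale (SE 0.82, edgeR adjusted p = 0.00865), between 3.30 without p66Low aggressive replicate 2 and 4.36 without p66Low aggressive replicate 3. Zap70 rose by 4.95 and Lat by 4.81, and both calls were lost without p66Low parental replicate 3 (edgeR adjusted p = 0.0509 and 0.0659).

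Tcf7 and Il7r are characteristic of naive and memory T cells, the former encoding a transcription factor and the latter the receptor for the survival cytokine IL-7, which some innate lymphocytes also carry. Il7r was at 1.54, 1.83 and 1.82 CPM in the p66Low parental group and 16.8, 25.7 and 5.49 CPM in the p66Low aggressive group. Tcf7 was at 0.810, 1.83 and 1.51 CPM in the former and 14.9, 20.7 and 1.93 CPM in the latter, so that replicate 3 was barely above the parental tumours. Il7r rose by 3.21 (SE 0.60, edgeR adjusted p = 0.00545). Tcf7 rose by 3.19 (SE 0.83, edgeR adjusted p = 0.0239), and this call was lost without p66Low parental replicates 1 or 3 or p66Low aggressive replicates 1 or 2, with edgeR adjusted p-values from 0.0551 to 0.0892. Foxp3, the transcription factor gene of regulatory T cells, was at 0.297, 0.406 and 0 CPM in the former and 0.834, 1.46 and 0.928 CPM in the latter. Its difference of 2.27 (SE 0.83) did not pass (edgeR adjusted p = 0.0849).

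Of the 9 killing and NK cell receptor genes tested 8 rose, Gzmb being the exception. Gzma, which encodes granzyme A, was at 0.270, 0.162 and 0.208 CPM in the p66Low parental group and 2.08, 1.95 and 2.20 CPM in the p66Low aggressive group. Ncr1, the NKp46 receptor gene that marks NK cells and related innate lymphocytes, was at 0.108, 0.0812 and 0.130 CPM in the former and 3.44, 2.66 and 2.44 CPM in the latter. In these 2 genes replicate 3 stood level with the lymph node-rich libraries or close to them. Gzma rose by 3.24 (SE 0.54, edgeR adjusted p = 0.00315) and Ncr1 by 4.66 (SE 0.67, edgeR adjusted p = 0.00152), the smallest p of the 30 genes. Leaving out 1 tumour at a time kept Gzma between 3.12 and 3.46 and Ncr1 between 4.53 and 4.86.

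Klrk1, which encodes the stress ligand receptor NKG2D, was at 0.540, 0.771 and 0.104 CPM in the p66Low parental group and 5.63, 7.93 and 7.42 CPM in the p66Low aggressive group, a rise of 3.94. Nkg7, a gene of cytotoxic granules, was at 0.108, 0.325 and 0 CPM in the former and 3.44, 6.22 and 5.32 CPM in the latter, a rise of 5.26. Il2rb, the shared receptor chain for IL-2 and IL-15, was at 0.891, 0.649 and 0.572 CPM in the former and 9.76 to 13.2 CPM in the latter, a rise of 3.96. All 3 genes kept their groups far apart, and edgeR adjusted p-values were 0.00554, 0.00528 and 0.0074 in that order. Klrd1, the CD94 receptor gene, rose by 3.60. Klrb1c, the NK1.1 receptor gene, rose by 2.5, the least of the 28, and its call held without only 3 of the 12 tumours, with edgeR adjusted p-values up to 0.139.

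Among the other killing genes, Gzmb, granzyme B, was at 0, 1.10 and 0.208 CPM in the p66Low parental group and 2.76, 1.80 and 3.34 CPM in the p66Low aggressive group. Its parental replicate 2 was far above the other parental tumours, and the difference of 2.70 (SE 0.93) did not pass (edgeR adjusted p = 0.0696). Without that tumour it was 4.62 and passed. Fasl, the ligand of the death receptor Fas, was at 0.0810, 0.325 and 0 CPM in the former and 1.56, 1.67 and 1.93 CPM in the latter. The Fasl rise of 3.82 was not kept without p66Low parental replicates 1 or 3 or p66Low aggressive replicate 2 (edgeR adjusted p = 0.0797, 0.0679 and 0.0546). Prf1, the perforin gene, was at 2.29, 3.86 and 0.913 CPM in the latter, with replicate 3 the lowest. It rose by 4.82 and lost its call without any 1 of the p66Low parental tumours or p66Low aggressive replicate 2 (edgeR adjusted p-values from 0.0545 to 0.0914). The T-box transcription factor genes Eomes and Tbx21 rose by 4.76 and 3.55. The Eomes call was lost without p66Low parental replicate 1 (edgeR adjusted p = 0.0503), and that of Tbx21 without p66Low parental replicates 1 or 3 or p66Low aggressive replicate 2 (edgeR adjusted p-values from 0.0509 to 0.0695).

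**Figure D3:**
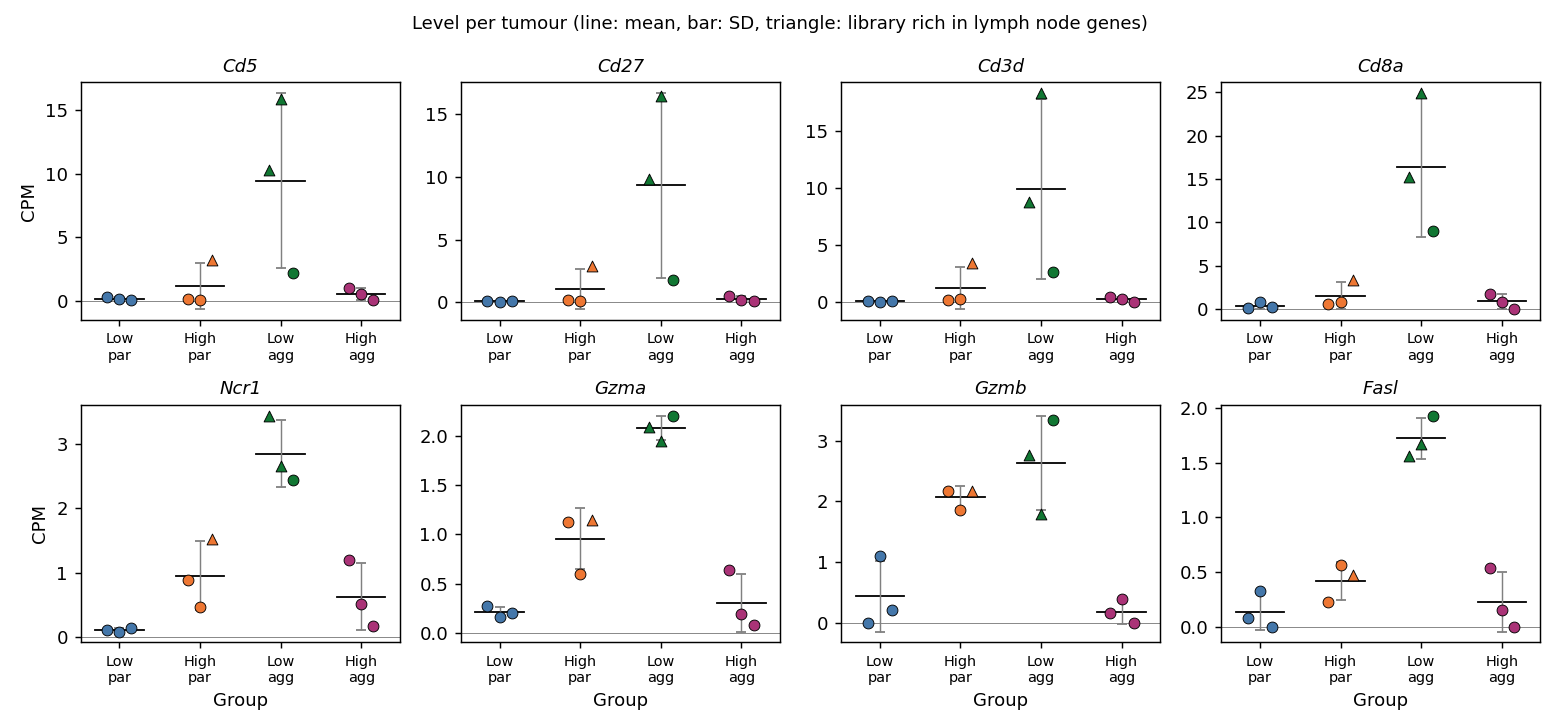
CPM of 8 genes, chosen after their values were seen, in the 12 tumours by group (Low par, p66Low parental; High par, p66High parental; Low agg, p66Low aggressive; High agg, p66High aggressive). Points are tumours, lines group means, bars SD (n = 3) and triangles the 3 lymph node-rich libraries. For Cd5, Cd27, Cd3d and Cd8a the triangles are the highest tumours of their group, while for Gzma, Gzmb and Fasl the highest p66Low aggressive tumour is replicate 3, which is poor in lymph node genes.

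The 3 lymph node-rich libraries include 2 of the 3 p66Low aggressive tumours, so the comparison was repeated without them. Replicate 3 was then the sole p66Low aggressive tumour and was assumed to vary like the other groups. In that fit 12 of the 30 genes were higher and none lower, where 3.47% of 20320 genes passed in either direction, and the median log2 difference was 3.44. The 12 were Cd3d, Cd3g, Cd8a, Cd28, Cd6, Cd27, Lck, Il7r, Gzma, Nkg7, Ncr1 and Klrk1. With the log2 summed level of the 3 lymph node genes as a covariate in the fit of all 12 tumours, 14 genes were higher, where 5.47% of all genes passed in either direction, and the median was 2.99.

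Replicate 3 was compared with the 8 other tumours poor in lymph node genes one by one. It lay above all 8 of them in 30 of the 30 genes tested, which held for 18.1% of all genes. Its lymph node genes summed to 0.699 CPM, above the 0 to 0.451 CPM of the other 8. Of this Cr2 gave 0.0999, Ccl21a 0.0571 and Cxcl13 0.542 CPM, and Cxcl13 was at 0 to 0.270 CPM in the other 8. The B cell genes of replicate 3 summed to 8.78 CPM, within the range of the other 8. A further list of 8 genes of lymph node stroma summed to 1329 CPM in it, against 446, 707 and 1673 CPM in the lymph node-rich libraries and 40.6 to 883 CPM in the 8 others. Ltf, the lactoferrin gene, which milk-producing epithelium and neutrophils also express, made up 1327 CPM of this. The 7 genes other than Ltf, a split made after the values were seen, summed to 1.61 CPM in replicate 3, 0.550 to 3.68 CPM in the 8 others and 51.3, 148 and 218 CPM in the lymph node-rich libraries. So replicate 3 was high for Ltf and low for the other genes of that list. The summed level of 5 general leukocyte genes was 329 CPM in it, against 111 to 218 CPM in those 8 tumours. Relative to these leukocyte genes, the 31 genes had a count ratio of 0.303 in replicate 3 and of 0.0736 to 0.194 in the 8 others. A ratio of counts depends on the lengths of the genes in it and is compared only between tumours.

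**Figure D4:**
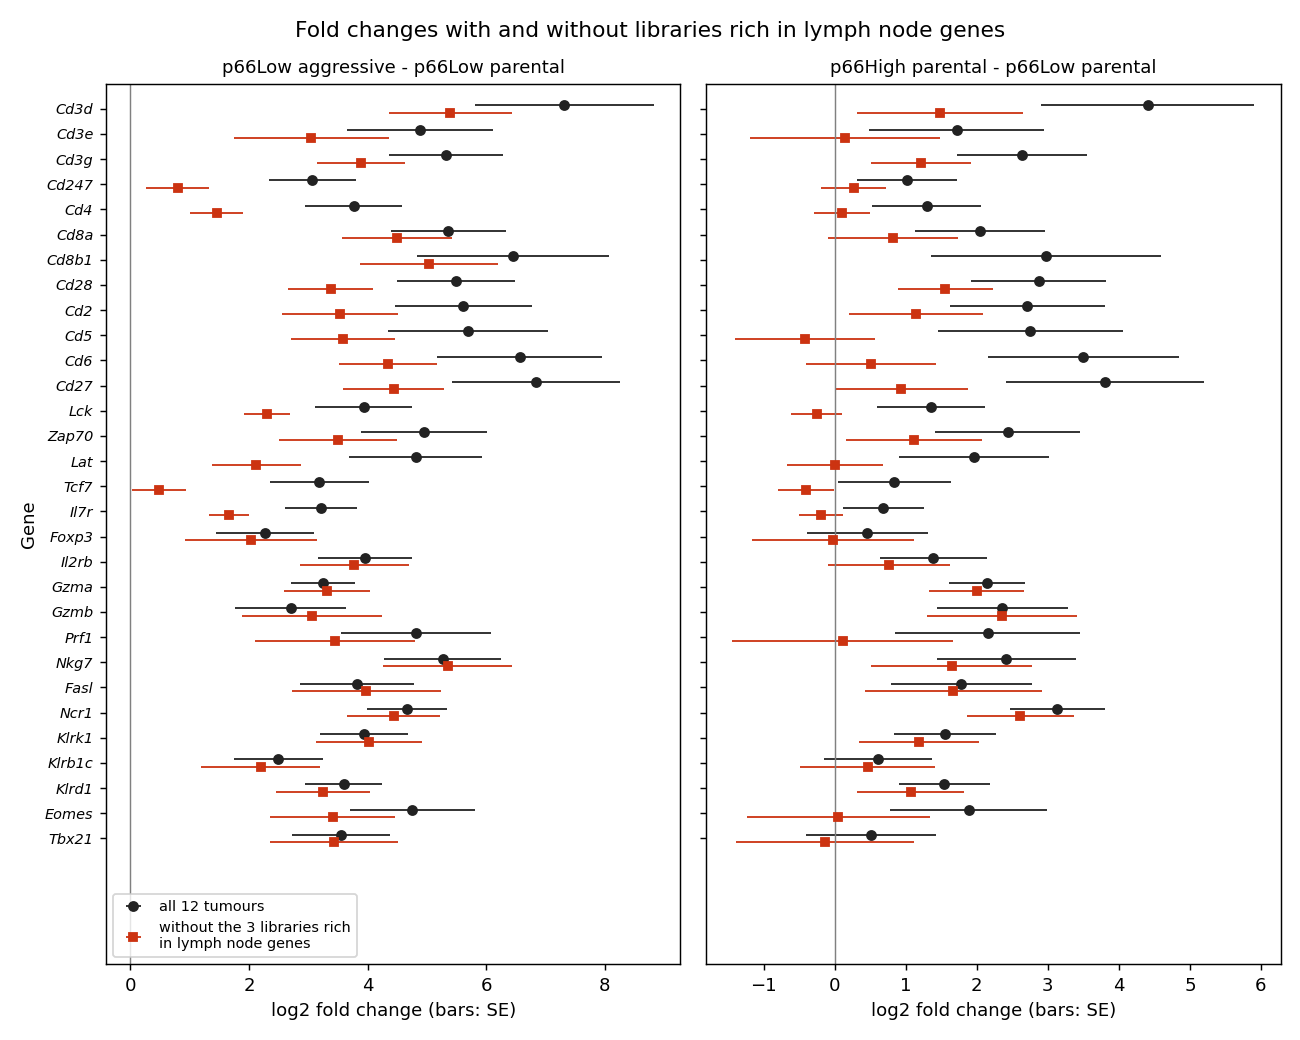
Log2 fold change of each gene between p66Low aggressive and p66Low parental tumours (left) and between p66High parental and p66Low parental tumours (right), from all 12 tumours (black circles) and without the 3 lymph node-rich libraries (red squares), with bars for the SE. On the left both sets of points lie above 0 for all 30 genes, with medians of 4.71 and 3.44, and on the right the median moves from 2.0 to 0.64. Cd8b1 has no red square on the right because the remaining p66High parental tumours have no count of it.

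The second comparison set p66High against p66Low parental tumours and so addressed the added p66ShcA before selection. Gzma and Ncr1 rose and none of the 30 genes fell, where 3.98% of all genes were called higher. All 30 differences were positive, with a median of 2.0 on the log2 scale against -0.01 over all genes, and 13 had an unadjusted p under 0.05 (edgeR), where 22.9% of all genes did. In 13 genes all p66High tumours lay above all p66Low tumours, where 15.6% of all genes did so. Gzma was at 1.13, 0.598 and 1.14 CPM in p66High parental against 0.270, 0.162 and 0.208 CPM in p66Low parental tumours. Ncr1 was at 0.880, 0.457 and 1.52 CPM in the former against 0.108, 0.0812 and 0.130 CPM in the latter, where it rests on 11 counts. The groups were apart for both genes, and the library rich in lymph node genes was the highest for both, by a small margin for Gzma. Gzma rose by 2.14 (SE 0.54, edgeR adjusted p = 0.0318) and Ncr1 by 3.13 (SE 0.67, edgeR adjusted p = 0.0147).

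Both of these calls depended on single tumours. Neither was kept without replicate 1 or replicate 3 of the p66Low parental group or without p66High parental replicate 3, and Gzma was also lost without p66Low parental replicate 2 or p66High parental replicate 1. The edgeR adjusted p-values were then 0.0740 to 0.113 for Gzma and 0.0557 to 0.0646 for Ncr1. Gzmb was at 2.17, 1.86 and 2.18 CPM in p66High parental tumours, and its difference of 2.36 (SE 0.93) did not pass (edgeR adjusted p = 0.151), p66Low parental replicate 2 being at 1.10 CPM.

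Without the 3 lymph node-rich libraries no gene passed in p66High against p66Low parental tumours, where 4.12% of all genes did (edgeR adjusted p). The median fell to 0.64. The loss was uneven across the genes. The log2 difference of Cd3d went from 4.41 with all tumours to 1.48, that of Cd6 from 3.5 to 0.51, and that of Cd5 from 2.75 to -0.42. The difference of Gzma went from 2.14 to 2.0, of Gzmb from 2.36 to 2.35, of Fasl from 1.78 to 1.67 and of Ncr1 from 3.13 to 2.61. These 7 genes were chosen after their values were seen, and the difference between the roles was not tested.

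In p66High tumours, selection went with no call among the 30 genes (edgeR), where 5.94% of all genes passed in either direction. Of the 30, 3 had an unadjusted p under 0.05, where 22.7% of all genes did, and DESeq2 called 2, where it called 10.9% of all genes. The median log2 difference of p66High aggressive against p66High parental tumours was -0.97. Gzmb was at 0.152, 0.393 and 0 CPM in p66High aggressive tumours, below every p66High parental tumour, and differed by -3.49 (SE 1.02, edgeR adjusted p = 0.0696). Cd247, at 0.787, 0.746 and 0.475 CPM in the former and 1.26, 1.41 and 3.99 CPM in the latter, was the other gene without overlap between the groups, where 16% of all genes lay wholly lower. Without the lymph node-rich libraries the median was 0.32, with 20 of the 30 differences positive against 2 with all tumours. No gene passed in that fit (edgeR adjusted p under 0.05), where 2.88% of all genes passed.

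p66High aggressive against p66Low aggressive tumours compared the lines after selection. Of the 30 genes, 27 fell and none rose, where 12.1% of all genes were called lower, and the median log2 difference was -3.71. Foxp3, Klrb1c and Tbx21 did not pass, with edgeR adjusted p-values of 0.135, 0.0832 and 0.0550. In all 30 genes every p66High tumour lay below every p66Low tumour, as 18.7% of all genes did. The calls of 11 genes held whichever tumour was left out: Cd3g, Cd247, Cd4, Cd8a, Cd28, Cd2, Lck, Il7r, Gzma, Klrk1 and Klrd1. The count was 12 without p66High aggressive replicate 2, 16 without p66High aggressive replicate 3 and 17 without p66Low aggressive replicate 2, where 15%, 13.6% and 12.3% of all genes passed in either direction. With tumours that share a title number summed, it was 16, where 15.2% of all genes passed.

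Gzma was at 0.635, 0.196 and 0.0863 CPM in p66High aggressive tumours against 1.95 to 2.20 CPM in p66Low aggressive tumours. Lck was at 2.89, 2.04 and 1.64 CPM against 8.48 to 44.9 CPM, and Cd8a at 1.80, 0.864 and 0.0863 CPM against 9.02 to 24.9 CPM. In each gene p66High aggressive replicate 3 was the lowest tumour of its group, as it was in 25 of the 30 genes, where 39.5% of all genes were lowest there. Gzma fell by 2.65 on the log2 scale (SE 0.52, edgeR adjusted p = 0.00475), Lck by 3.57 (SE 0.80, edgeR adjusted p = 0.00922) and Cd8a by 4.09 (SE 0.88, edgeR adjusted p = 0.00762). Without p66High aggressive replicate 1 the difference was -3.83 for Gzma and -5.07 for Cd8a, and without p66Low aggressive replicate 2 it was -2.93 for Lck. Without the 3 lymph node-rich libraries 3 of the 30 genes were lower, Cd3g, Lck and Il7r, where 5.29% of all genes passed in either direction. All 30 differences were negative in that fit, with a median of -2.23.

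The interaction tests whether selection went with a different change in p66High than in p66Low tumours. It was negative for all 30 genes, and 27 passed, where 7.99% of all genes passed in that direction. Again Foxp3, Klrb1c and Tbx21 did not. The median was -5.22 on the log2 scale, against 0.05 over all genes. The calls of 14 genes held whichever tumour was left out: Cd3d, Cd3g, Cd247, Cd4, Cd8a, Cd28, Cd2, Cd27, Lck, Il7r, Gzma, Ncr1, Klrk1 and Klrd1. The count was 15 without p66Low parental replicate 3 or without p66High parental replicate 3 and 17 without p66Low aggressive replicate 2, where 5.9%, 7.2% and 5.99% of all genes passed in either direction. With tumours that share a title number summed, it was 17, where 5.71% passed. Gzma had the smallest p (-4.80, SE 0.75, edgeR adjusted p = 0.00419), and its value was -5.97 without p66High aggressive replicate 1. The interaction of Cd3d was the largest in size of the 30 genes (-9.68, SE 1.95, edgeR adjusted p = 0.0117), and it was -6.78 without p66High parental replicate 3. Without the 3 lymph node-rich libraries no gene passed (edgeR, 20 at an unadjusted p under 0.05), where 1.65% of all genes did, and the median was -3.13. The interaction of Gzma was then -4.71.

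The last comparison, p66High aggressive against p66Low parental tumours, differs in both factors. Ncr1 alone rose, where 5.72% of all genes were called higher. It was at 1.19, 0.511 and 0.173 CPM in p66High aggressive against 0.0812 to 0.130 CPM in p66Low parental tumours, so the groups did not overlap. The rise was 2.55 (SE 0.69, edgeR adjusted p = 0.0346). It was not kept without any 1 of the p66Low parental tumours, p66High parental replicate 1, or p66High aggressive replicates 1 or 2, with edgeR adjusted p-values from 0.0514 to 0.184. Without p66High aggressive replicate 1 the value was 1.64. The median of the 30 genes was 1.02. Without the 3 lymph node-rich libraries no gene passed (edgeR adjusted p under 0.05), where 8.35% of all genes passed. The p66Low parental tumours also enter 2 of the comparisons above, and other groups are shared in the same way, so the comparisons are not independent of each other.

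The lymph node-rich libraries were set against the rest of their own group, gene by gene, in a description added after the values were seen. For p66Low aggressive tumours the ratio is the mean CPM of replicates 1 and 2 over replicate 3, and for p66High parental tumours replicate 3 over the mean of replicates 1 and 2. The ratio reached 2-fold for 19 of the 30 genes in p66Low aggressive tumours, where 9.26% of all genes did so. It reached 2-fold for 24 of 29 genes in p66High parental tumours, where 2.98% of all genes did so, Cd8b1 having no count in the denominator. Across the 29 genes the logarithms of both ratios had a Pearson correlation of 0.80, and the ratios a Spearman correlation of 0.74. The ratios come from different tumours, but several genes have few counts in the denominators and genes are not independent.

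By the mean of both log ratios Cd5, Cd27 and Cd6 were the 3 highest of the 29 genes and Gzma, Fasl and Gzmb the 3 lowest. Cd5 was 25.7 times and 5.96 times as high in the lymph node-rich libraries, in p66High parental and p66Low aggressive tumours respectively. Cd27 was 19.5 and 7.47 times as high, Cd6 20.6 and 6.49 times, Cd3d 19.5 and 5.18 times, and Lat 9.53 and 9.21 times. The other surface receptor genes were lower in this order, Cd2 at 6.61 and 5.85 times and Cd28 at 5.23 and 5.94 times. The parental denominators of Cd5, Cd27, Cd6 and Cd3d hold only 10 to 12 counts. At the other end, Gzmb had ratios of 1.08 and 0.682, Fasl of 1.2 and 0.840 and Gzma of 1.32 and 0.918. The NK cell receptor genes had ratios of 1.30 to 2.28 in p66High parental tumours and of 0.913 to 1.4 in p66Low aggressive tumours. Prf1, a killing gene, had ratios of 8.90 and 3.37 (6 counts in the parental denominator). The mean of both log2 ratios was 2.45 for Prf1, close to the 2.48 of Cd28. Foxp3 had ratios of 2.25 and 1.23. A difference between the roles was not tested. The part of lymph node tissue in these values was not tested.

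**Figure D5:**
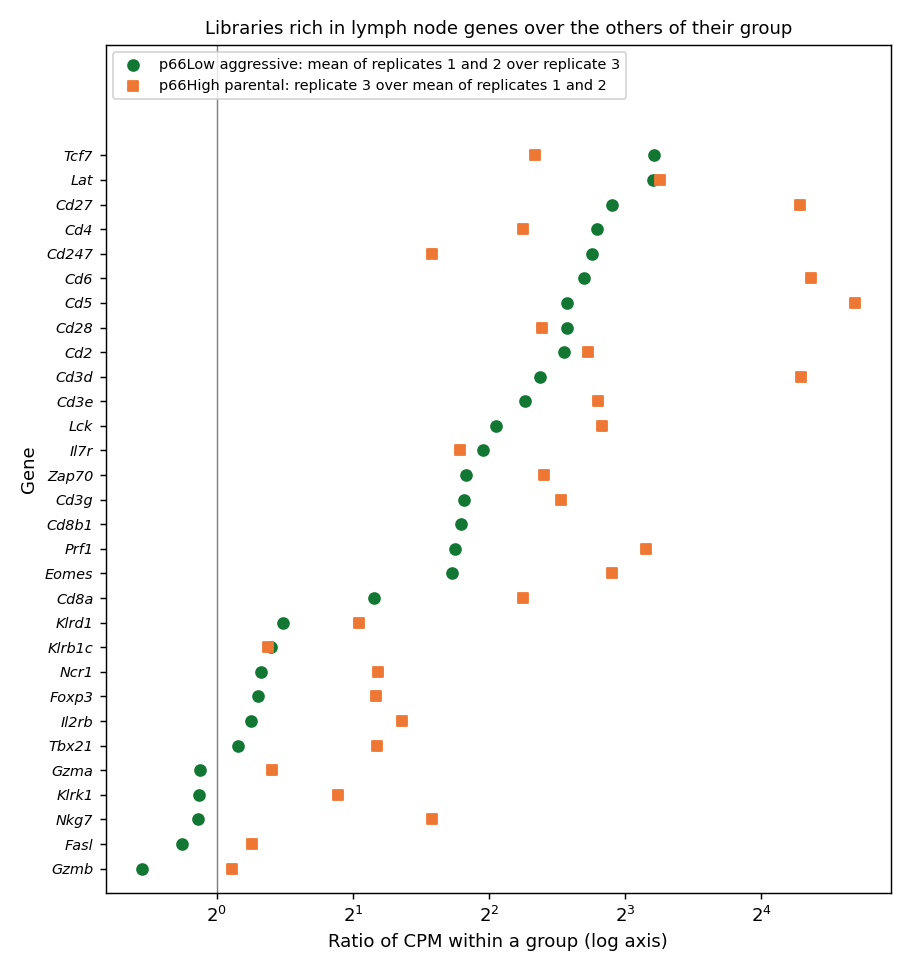
Ratio of CPM between lymph node-rich libraries and the others of the same group (horizontal, log axis) for each gene (rows, ordered by the p66Low aggressive ratio). Green circles are p66Low aggressive and orange squares p66High parental tumours, and the vertical line marks equal levels. Gzmb, Fasl and Gzma lie near the line in both groups, and Cd5, Cd6, Cd27 and Lat lie far to its right in both.

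Upstream sequences are shown for the ends of this order: Cd5 and Cd27, with the highest mean of both log ratios among genes that have an entry in the RefSeq promoter table used (GRCm38.p6), and Fasl and Gzmb, with the lowest. Each is the 250 bases before the RefSeq start, written 5′ to 3′ on the gene's own strand, which is the minus strand for all 4. Capitals mark AGGAAG, the core recognised by ETS factors, or TGTGGT, the core recognised by RUNX factors, on either strand. The regions are chr19:10738975-10739224 for Cd5, chr6:125237028-125237277 for Cd27, chr1:161788496-161788745 for Fasl and chr14:56262335-56262584 for Gzmb.
Cd5: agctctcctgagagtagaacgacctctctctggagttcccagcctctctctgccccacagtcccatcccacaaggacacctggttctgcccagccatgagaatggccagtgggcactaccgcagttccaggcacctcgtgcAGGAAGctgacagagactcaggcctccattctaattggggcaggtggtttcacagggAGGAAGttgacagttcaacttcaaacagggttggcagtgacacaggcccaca
Cd27: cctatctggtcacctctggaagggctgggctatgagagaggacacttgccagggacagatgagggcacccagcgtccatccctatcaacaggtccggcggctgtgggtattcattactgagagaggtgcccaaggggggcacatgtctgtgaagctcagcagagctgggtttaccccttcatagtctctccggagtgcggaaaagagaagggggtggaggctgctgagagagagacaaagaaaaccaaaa
Fasl: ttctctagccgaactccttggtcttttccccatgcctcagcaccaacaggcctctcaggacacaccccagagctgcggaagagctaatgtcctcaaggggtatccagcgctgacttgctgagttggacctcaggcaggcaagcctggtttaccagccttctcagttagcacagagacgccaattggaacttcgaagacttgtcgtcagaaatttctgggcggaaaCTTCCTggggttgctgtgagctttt
Gzmb: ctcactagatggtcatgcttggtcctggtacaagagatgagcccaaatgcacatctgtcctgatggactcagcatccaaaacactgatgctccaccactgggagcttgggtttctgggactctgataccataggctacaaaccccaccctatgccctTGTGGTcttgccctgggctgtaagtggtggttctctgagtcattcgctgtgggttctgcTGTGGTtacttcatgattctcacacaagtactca

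The Cd5 window holds 2 matches to AGGAAG and the Fasl window 1, on the opposite strand as CTTCCT. The Gzmb window holds 2 matches to TGTGGT and the Cd27 window none of the motifs searched. Of the 31 genes 24 had an entry, and those of Cd4, Cd8b1, Cd28, Cd2, Cd6, Il2rb and Klrd1 were missing. TGTGGT or its reverse complement ACCACA was in 8 of the 24 windows, where it was in 14.0% of 32851 windows of the same length. It was in 7 of 11 windows of killing genes, NK cell receptor genes and T-box genes (Gzma, Gzmb, Prf1, Nkg7, Ncr1, Klrk1 and Klrb1c), and in 1 of 13 windows of the other genes (Lck). AGGAAG or CTTCCT was in 13 of the 24 windows, where it was in 29.5% of all windows. It was in 5 of the 11 and 8 of the 13 windows. The TCF core TTCAAAG (reverse complement CTTTGAA) was in 1 window, that of Gzmk, and the T-box core GGTGTGA (reverse complement TCACACC) in 2, those of Gzmk and Nkg7, where 4.46% and 3.33% of all windows held them.

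These motifs and the window were settled after a first search of 300 bases in every entry of a gene. Of single windows of 300 bases 16.8% held TGTGGT. In that search it was in at least 1 entry of 11 of the 24 genes, and a gene with several entries had more than 1 chance. These 11 were 7 of the 11 killing, NK cell receptor and T-box genes and 4 of the 13 others (Lck, Zap70, Lat and Il7r). The split by role was thus narrower there than in the window settled afterwards. The first search also found the longer ETS motif CCGGAAGT in 1 gene, Tcf7, against 3.89% of single windows. The windows of Foxp3, Gzmk, Klrb1c and Il7r belong to RefSeq starts 6032, 44943, 574 and 300 bases from the start annotated by GENCODE. Those of Klrb1c and Il7r lie inside the annotated gene. A match describes the letters only.

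Ratios between T cell and NK cell genes were formed in each tumour. The count ratio of Cd8a to Cd4 was 2.25 in replicate 3, against 0.775 and 0.696 in p66Low aggressive replicates 1 and 2, 0.452 in p66High parental replicate 3 and 0.0833 to 0.934 in the remaining 8. The ratio of 6 killing genes to the 3 CD3 chain genes was 1.60 in replicate 3, against 0.489 and 0.327 in replicates 1 and 2 and 0.670 in p66High parental replicate 3. NK cell receptor genes to the CD3 chain genes gave 1.68 against 0.589, 0.372 and 0.623 in the same order. In replicate 3 the killing and NK cell genes were thus higher relative to the CD3 chain genes than in the 3 lymph node-rich libraries. In 5 of the tumours poor in lymph node genes where these ratios could be formed, the former was 1.43 to 4.07 and the latter 1.5 to 2.95, on few counts, so this was not particular to replicate 3. Of the 1014 NK cell receptor counts in replicate 3, Klrk1 gave 520 and Klrd1 222. Which cells made them was not tested.

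The count ratio of Foxp3 to Cd4 was 0.231 in p66Low aggressive replicate 3 and 0.0424, 0.0407 and 0.0621 in the 3 lymph node-rich libraries, with 0 to 0.458 in the remaining 8 tumours. The ratio of B cell genes to CD3 chain genes was 1.02 in the former and 6.90, 4.88 and 6.42 in the latter, with 6.51 to 18.4 in 5 of the remaining tumours. A sum of 5 T cell genes (Cd3d, Cd3e, Cd3g, Cd247 and Cd28) over the 3 lymph node genes was 19.0 in the former and 0.817, 1.03 and 0.814 in the latter, with 6.35 in p66High parental replicate 1. In the 7 remaining tumours that ratio was not formed, but the 5 genes had 21 to 166 counts and the lymph node genes 0 to 12, fewer in each tumour, so a high ratio was not particular to replicate 3. With 1 tumour on one side these ratios are values without a test, and the pairs of lists were chosen after earlier values were seen.

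Other genes of the same pathways were counted by list, in p66Low aggressive against p66Low parental tumours, where 9.6% of all genes were called higher. Of 25 further T cell signalling genes 22 rose and none fell, with a median log2 difference of 4.26, and of 20 T cell transcription factor genes 13 rose and none fell, with a median of 1.5 and 17 of the 20 differences positive. Of 28 further NK cell receptor and effector genes 23 were tested, and 21 of them rose and none fell, with a median of 2.90. In p66High against p66Low aggressive tumours 22, 12 and 18 of these genes fell and none, none and 1 rose, where 12.1% of all genes were called lower.

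Rasgrp1, an activator of Ras in T cells, was at 1.08, 1.42 and 1.25 CPM in the p66Low parental group and 27.2, 37.2 and 15.3 CPM in the p66Low aggressive group. Xcl1, a chemokine gene of NK cells and activated killer T cells, was at 0.189, 0.325 and 0.104 CPM in the former and 2.29, 3.00 and 5.77 CPM in the latter. The highest aggressive tumour was replicate 2 for Rasgrp1 and replicate 3 for Xcl1. Rasgrp1 rose by 4.42 (SE 0.59, edgeR adjusted p = 0.00102) and Xcl1 by 4.22 (SE 0.61, edgeR adjusted p = 0.00163), and without the 3 lymph node-rich libraries the differences were 3.61 and 4.85, both past the threshold. Both calls also held whichever tumour was left out. Srgn, which encodes the granule proteoglycan serglycin of many leukocytes, rose by 2.04 and Tnfsf10, the death ligand TRAIL, by 1.78, and both also passed without those libraries. Satb1, a chromatin organiser of T cells, rose by 2.19 and Runx3, a factor of killer T cells, by 2.12, and of these Satb1 alone passed without them. Among the genes with the smallest p in their lists, Lcp2, which encodes the adaptor SLP-76, was at 4.21 to 4.52 CPM in p66Low parental tumours and 10.6 to 26.1 CPM in the other 3 groups. It rose by 1.53 in p66High parental (SE 0.27, edgeR adjusted p = 0.00603) and by 1.80 in p66High aggressive against p66Low parental tumours (SE 0.28, edgeR adjusted p = 0.00183). SLP-76 is also made in myeloid cells. Vav1 and Stat4, also among the 3 smallest p of their lists, rose by 1.59 and 3.81 in p66Low aggressive against p66Low parental tumours. Without the 3 lymph node-rich libraries these differences were 0.97 and 2.63. Cd7 rose by 2.23 in p66High against p66Low parental tumours (edgeR adjusted p = 0.0355). It differed by -2.27 in p66High aggressive against p66High parental tumours (edgeR adjusted p = 0.0418). Without those libraries the 2 Cd7 values were 1.76 and -1.79.

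Genes of other leukocytes moved with the T cell and NK cell genes. In p66Low aggressive against p66Low parental tumours 9 of 10 B cell, 7 of 10 macrophage, 5 of 7 dendritic cell and 5 of 5 general leukocyte genes rose, where 9.6% of all genes were called higher, and none of the 5 epithelial tumour genes passed (edgeR). Macrophage genes summed to 1035, 1234 and 675 CPM in p66Low aggressive tumours and to 275 to 747 CPM in the other 9, where p66High parental replicates 1 and 2 gave 670 and 747 CPM. Their part in the results was not tested.

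Some counts are uncertain. Exons of Cd247 overlap those of Pou2f1 on the other strand, which with Gm16565 has 27656 counts against 1969. Exons of Foxp3 overlap those of Ccdc22, Ppp1r3f and Flicr, which together with Gm36995 have 32592 counts against 275. The strand setting of the counting is not given in the sources used here, so reads of these neighbours cannot be told apart from those of Cd247 and Foxp3. Klrb1c, Klrd1 and Klrk1 belong to the lectin-like receptor families of chromosome 6, and Ccl21a has near-identical copies, so reads could be shared with relatives. Several of the genes lie side by side. On chromosome 9 Cd3g and Cd3d are 1354 bases apart and Cd3e lies 11.4 kb further, on chromosome 6 Cd8b1 and Cd8a are 35.9 kb apart and Klrd1 and Klrk1 11.5 kb, and on chromosome 19 Cd5 and Cd6 are 50.3 kb apart (mm10).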

How the data were processed

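The libraries were stranded and rRNA-depleted. The tools per the submitters' processing notes were featureCounts 1.4.4, STAR 2.3.0e and Trimmomatic 0.32, on mm10. Annotation and strand setting: not given in the sources used here. The deposited table holds raw counts per gene, not normalized by the authors. Of counts from 1 to 10, 65.8% to 73.7% per library were even, which a count of both read ends would give. The counts were used as deposited, without an adjustment for this. Of 39017 genes, 37693 matched GENCODE vM21 by identifier, and 9307 had no count.

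Genes were tested with edgeR 4.0.16 in R 4.3.3 (TMM scaling, filterByExpr, quasi-likelihood F test, 12 tumours in 4 groups, 8 residual degrees of freedom), with Benjamini-Hochberg adjustment over 19370 genes and a threshold of 0.05. The SE is the log2 fold change divided by the square root of F. Levels are CPM of TMM-scaled libraries. The fit without the 3 lymph node-rich libraries had 5 residual degrees of freedom. The alternatives were other scalings and filters, DESeq2 1.42.0, only the 6 tumours compared, tumours that share a title number summed, a covariate of the 3 lymph node genes (log2 of CPM + 0.5), and each tumour left out. The fitting was tested on simulated data. No pair of replicates agreed within sampling noise, taken on the counts as deposited (lowest chi-square per degree of freedom 20.6).

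The T cell and NK cell genes and the other lists were chosen with earlier results of these data known. Genes of the further lists were named from those with the 3 smallest p-values of their list past the test in a comparison. Not all of these genes are named. The within-group ratios, the pairs in the per-tumour ratios and the promoter motifs were added after values were seen.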

Additional observations from a re-analysis of the deposited data

Results flagged for a closer look

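The change that went with selection differed between p66High and p66Low tumours for 27 of the 30 genes tested, by the interaction term of the edgeR fit, where 7.99% of all genes passed in this direction. With selection all 30 differences were positive in p66Low tumours, and 2 of 30 were positive in p66High tumours, where none was called. All 27 interaction values, on the log2 scale, are negative. They stood at -9.68 for Cd3d, -5.84 for Cd3e, -6.96 for Cd3g and -4.80 for Cd247 in the receptor complex. The coreceptor genes gave -5.19 for Cd4, -6.13 for Cd8a and -7.28 for Cd8b1, whose direction turned to 0.27 without p66High parental replicate 3. Among surface receptors the values were -6.69 for Cd28, -7.25 for Cd2, -6.80 for Cd5, -7.98 for Cd6 and -8.83 for Cd27. The signalling genes gave -4.92 for Lck, -6.07 for Zap70 and -6.60 for Lat, and the cytokine receptor and naive T cell genes -3.99 for Tcf7, -3.65 for Il7r and -4.46 for Il2rb. For killing genes the difference was -4.80 for Gzma, -6.19 for Gzmb, -6.38 for Prf1, -4.96 for Nkg7 and -4.54 for Fasl. NK cell receptor genes gave -5.25 for Ncr1, -4.78 for Klrk1 and -4.11 for Klrd1, and the T-box gene Eomes -4.83. Of the 27 calls 14 held whichever tumour was left out, and none was kept without the 3 lymph node-rich libraries.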

How the results depend on the processing

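Without the 3 lymph node-rich libraries 12, 0, 3, 0 and 0 T cell and NK cell genes passed in p66Low aggressive against p66Low parental, p66High against p66Low parental, p66High against p66Low aggressive, the interaction and p66High aggressive against p66Low parental tumours. With the lymph node covariate the first 4 of these gave 14, 1, 2 and 2, where 5.47%, 7.38%, 8.55% and 2.5% of all genes passed. DESeq2 called 5 genes in p66High against p66Low parental tumours, where it called 12.4% of all genes. It called 2 in p66High aggressive against p66High parental tumours (10.9% of all genes) and 2 in p66High aggressive against p66Low parental tumours (14%). With no filter 1 gene passed in p66High aggressive against p66High parental tumours, where 3.76% of all genes did. With only the 6 tumours compared it was 1 there (7.33% of all genes) and 0 in p66High aggressive against p66Low parental tumours (9.6%). The interaction could not be run in that setting. Summing tumours with a shared title number gave 16 genes in p66High against p66Low aggressive tumours, where 15.2% of all genes passed. It gave 17 in the interaction (5.71%) and 0 in p66High aggressive against p66Low parental tumours (7.24%). The cause of these shifts was not tested.

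Leaving out 1 tumour gave 16 to 28 genes in p66Low aggressive against parental tumours (16 without p66Low parental replicate 3) and 0 to 2 in p66High against p66Low parental tumours. It gave 0 to 1 in p66High aggressive against p66High parental and 0 to 2 in p66High aggressive against p66Low parental tumours. In p66High against p66Low aggressive tumours it gave 12 to 28 (12 without p66High aggressive replicate 2, 16 without replicate 3, 17 without p66Low aggressive replicate 2). In the interaction it gave 15 to 26 (15 without p66Low parental replicate 3 or p66High parental replicate 3, 17 without p66Low aggressive replicate 2). Over these fits the share of all genes that passed was 7.73% to 17.5%, 4.36% to 9.65% and 2.29% to 7.34% for the first 3 comparisons. For the other 3, in the same order, it was 6.75% to 11.7%, 12.3% to 22.5% and 5.9% to 16.4%. The interaction changed sign for Cd8b1, to 1.68 without the 3 lymph node-rich libraries and 0.27 without p66High parental replicate 3, where the remaining p66High parental tumours have no count of it and the value depends on the prior count. Leaving out 1 tumour put Cd8b1 between -8.55 and 0.27. The sign also changed for Tcf7, to 0.35 with the lymph node covariate. Of 3703 values of single genes under the alternatives 3317 kept direction and side of the threshold, or passed in neither fit, 357 lost and 26 gained the call, and 3 changed sign with a call in 1 of the fits. Another 100 of 1926 values that passed in neither fit changed sign. In p66High aggressive against p66High parental tumours 20 of the 30 differences were positive without the lymph node-rich libraries and 16 with the covariate, against 2 in the edgeR fit of all tumours. No paired analysis was possible because the labels give the groups no shared replicate numbers.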

Other observations

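In p66Low aggressive replicate 3, the tumour of its group poor in lymph node genes, 21 of 25 T cell signalling genes, 20 of 23 NK cell genes and 12 of 20 T cell transcription factor genes were above all 8 other tumours poor in lymph node genes, where 18.1% of all genes were. The same held for 6 of 10 macrophage, 4 of 10 B cell, 5 of 7 dendritic cell, 5 of 5 general leukocyte and 2 of 5 epithelial tumour genes. Macrophage genes over general leukocyte genes had a count ratio of 1.60, 1.38 and 2.05 in the p66Low aggressive tumours, 2.02 in p66High parental replicate 3 and 2.47 to 3.98 in the other 8.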
